A study of Mus musculus with 8 samples.

Results

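Cdkn1a, Mdm2, Ccng1, Phlda3, Trp53inp1, Bax, Gadd45a, Gadd45b, Gadd45g and Myc were followed over 8 arrays of mouse brain, kidney and liver after exposure to lead. The set holds 6 targets of the tumour suppressor p53, the 3 Gadd45 genes and Myc, which makes 10 of the 37074 gene names on the array and 17 of its 56605 non-control probes. It was put together because Cdkn1a differed from control in opposite directions in kidney and liver at the high dose and Gadd45g was lower in both. The differences from control that follow therefore describe these arrays and carry no test. All mice were male, and each tissue's control animals drank distilled water. Lead acetate was dissolved in the drinking water of exposed animals over 3 weeks, at 100 mg/L for the low dose and at 1000 mg/L for the high dose, and RNA came from small pieces of each tissue. Brain and kidney had control, low-dose and high-dose arrays, liver had control and high-dose arrays, with a single array (n = 1) in every group. A difference between doses therefore has no replicate check. The labels used here give neither the strain nor the age of the animals, nor whether RNA of several animals was pooled.

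The protein p53 is a transcription factor that is held at a low level by Mdm2, an E3 ubiquitin ligase whose gene p53 itself activates. When DNA damage or other stress stabilises p53, it activates genes that stop the cell cycle, such as Cdkn1a, which encodes the CDK inhibitor p21, and genes of cell death, such as Bax. The small stress proteins of the Gadd45 family bind the kinase MAP3K4 and the replication clamp PCNA, and Myc is a transcription factor of cell growth that is known to repress Cdkn1a and Gadd45a.

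The sequence just upstream of the gene start was available for 8 of the 10 members, all but Trp53inp1 and Myc, in 9 windows of 250 bases (RefSeq, build GRCm38.p6). Cdkn1a had windows for both of its annotated starts. The windows below belong to the pair of p53 targets that were higher in high-dose kidney, to Ccng1, which came next among the p53 targets, to Gadd45g, which was lower in kidney and liver, and to its relative Gadd45b. They are written 5′ to 3′ on the gene's own strand and end at the last base before the start, and capitals mark every match to a searched motif.
Cdkn1a, upstream start, chr17:29090729-29090978, plus strand: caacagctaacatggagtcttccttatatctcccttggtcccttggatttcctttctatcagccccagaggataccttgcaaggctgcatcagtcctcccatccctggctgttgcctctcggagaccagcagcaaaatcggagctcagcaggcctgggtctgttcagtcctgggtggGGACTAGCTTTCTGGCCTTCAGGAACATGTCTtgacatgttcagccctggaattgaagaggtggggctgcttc
Phlda3, chr1:135765835-135766084, plus strand: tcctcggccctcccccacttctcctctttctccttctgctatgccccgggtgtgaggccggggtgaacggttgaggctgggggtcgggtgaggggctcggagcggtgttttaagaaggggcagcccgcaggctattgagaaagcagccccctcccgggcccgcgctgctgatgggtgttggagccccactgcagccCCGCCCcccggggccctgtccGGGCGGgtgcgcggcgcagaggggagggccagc
Ccng1, chr11:40755287-40755536, minus strand: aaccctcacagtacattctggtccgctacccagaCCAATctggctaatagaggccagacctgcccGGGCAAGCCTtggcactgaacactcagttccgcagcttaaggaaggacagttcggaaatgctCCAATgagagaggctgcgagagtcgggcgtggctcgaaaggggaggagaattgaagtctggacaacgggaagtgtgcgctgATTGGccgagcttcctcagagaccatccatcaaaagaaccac
Gadd45g, chr13:51846425-51846674, plus strand: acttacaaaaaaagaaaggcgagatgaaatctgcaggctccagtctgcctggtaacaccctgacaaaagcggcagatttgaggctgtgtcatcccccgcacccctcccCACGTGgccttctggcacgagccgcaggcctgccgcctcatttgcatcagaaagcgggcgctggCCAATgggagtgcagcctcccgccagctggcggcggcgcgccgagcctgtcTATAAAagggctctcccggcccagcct
Gadd45b, chr10:80929841-80930090, plus strand: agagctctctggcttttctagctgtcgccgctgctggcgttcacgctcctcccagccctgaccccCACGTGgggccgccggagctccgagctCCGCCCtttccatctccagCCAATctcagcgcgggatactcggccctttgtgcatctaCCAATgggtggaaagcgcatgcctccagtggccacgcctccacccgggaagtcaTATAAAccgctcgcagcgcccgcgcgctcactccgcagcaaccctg

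The motifs searched on both strands were the p53 decamer (the repeat unit of the p53 consensus site), the TATA box TATAAA, the CAAT box CCAAT, the GC box GGGCGG and the E-box CACGTG, and none of these matches overlapped another in the windows shown, apart from the decamers inside a decamer pair. A p53 decamer was present in windows of Cdkn1a (upstream start), Mdm2, Ccng1, Bax and Gadd45a, and in 7.13% of the 32851 RefSeq windows of the same length. A pair of decamers with at most 13 bases between them was present in the window of the upstream Cdkn1a start, from 73 to 42 bases before it, and in 21 windows, or 0.0639%, of all. The window of the other Cdkn1a start and that of Phlda3 held no decamer. TATAAA was present in the windows of Gadd45g, 27 to 22 bases before the start, and Gadd45b, 46 to 41 bases before it, and in 12.4% of all windows. CACGTG, to which Myc and many other factors bind, was present in the windows of Bax, Gadd45b and Gadd45g and in 6.02% of all. CCAAT was present in 33.8% of all windows and GGGCGG in 32.7%. A match describes letters in a window, and no binding was measured here.

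Levels are log2 processed signal relative to the 75th percentile of each array, so a level of 0 is the signal that 75% of the array's non-control spots do not exceed. Where a gene has several probes the brightest on average over the arrays is reported, and levels are compared between arrays for 1 gene, not between genes. To count as higher or lower, a gene had to differ by at least 2-fold (a log2 difference of 1), to exceed 3 array errors and to be well above background on both arrays. The array error combines the errors the scanner software gives for both spots and leaves out any spread between animals. Of the 17 probes, 13 were well above background on all 8 arrays, 3 on none and 1 on some, and the 10 reported probes were well above background on all 8.

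Spots well above background made up 53.4% to 67.1% of an array. Signal at the 75th percentile was 919 to 954 for brain, 729 to 782 for kidney and 427 to 435 for liver, so dim genes were measured least precisely in liver. All 10 brain, 10 kidney and 10 liver marker genes were well above background on every array of their own tissue. Their summed levels were 8.53 to 8.56 on brain arrays for the brain list, 10.12 to 10.19 on kidney arrays for the kidney list and 12.87 to 12.88 on liver arrays for the liver list. In bulk tissue, fewer cells of a type and less RNA per cell cannot be told apart.

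**Figure D1:**
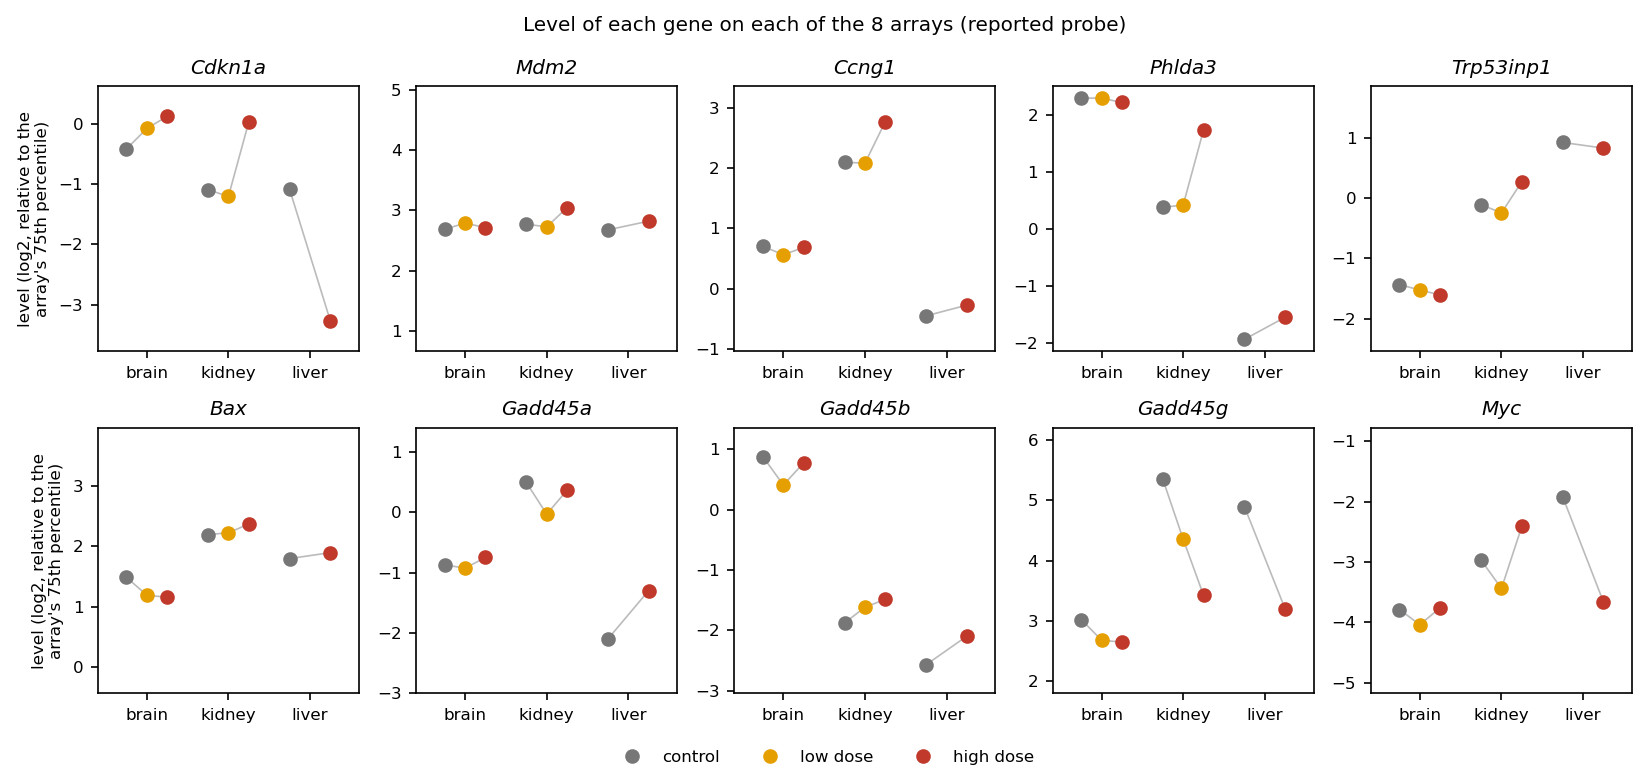
Level of each of the 10 genes (y axis, log2 relative to the array's 75th percentile) on each of the 8 arrays, grouped by tissue (x axis), with 1 point per array coloured by dose. The length of scale is the same in all panels but that of Phlda3, where it is longer. Cdkn1a reached its lowest level, -3.27, in high-dose liver, and Gadd45g fell from 5.35 to 3.42 in kidney and from 4.89 to 3.20 in liver between control and high dose.

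Cdkn1a, which encodes the cell-cycle inhibitor p21, was 2.18-fold higher in high-dose kidney and 4.54-fold lower in high-dose liver than in the control of the same tissue. Control, low-dose and high-dose brain stood at -0.42, -0.08 and 0.12, kidney in the same order at -1.09, -1.21 and 0.03, and control and high-dose liver at -1.09 and -3.27. The control kidney and control liver arrays thus had the same level, and the high-dose arrays lay on opposite sides of it. The log2 difference at the high dose was 1.13 in kidney (array error 0.21) and -2.18 in liver (array error 0.30), which ranked Cdkn1a 201 from the highest of 21230 measured genes in kidney and 3 from the lowest of 19062 in liver. The processed signal in high-dose liver was 45 against 200.4 in control liver, a dim value, yet still well above background. Low-dose kidney differed from control by -0.11, within its array error, and the high dose exceeded the low dose by 1.24. Brain was above its control by 0.34 at the low and 0.54 at the high dose, short of the 2-fold rule. These values come from a probe at chr17:29237377-29237436 (mm9). A pair of further Cdkn1a probes, designed against other transcript records at chr17:29235299-29235358 and chr17:29227986-29228045, was below background on all 8 arrays. The latter lies furthest upstream of the 3 probes, and which annotated Cdkn1a start was in use was not tested. Background correction by the normexp model took the kidney difference to 0.98, just below the rule, and the liver difference to -1.13. The mean of the 3 probes, which averages in the pair below background, gave 0.35 in kidney and -0.39 in liver, and neither passed the rule.

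Of the other p53 targets, Phlda3, whose product competes with the kinase Akt for membrane lipids, was 2.57-fold higher in high-dose kidney. Its level in control, low-dose and high-dose kidney was 0.39, 0.43 and 1.75. The low dose was thus at the control level, and the high dose was higher by 1.36 (array error 0.20, rank 130 from the highest). Phlda3 stood at 2.30, 2.30 and 2.23 in brain and at -1.93 and -1.54 in liver, and the liver difference of 0.39 was 1.71 array errors. Ccng1, which encodes cyclin G1, showed the same order of arrays in kidney, with 2.09, 2.08 and 2.77. Its high-dose difference of 0.67 was 3.31 array errors but only 1.60-fold, short of the rule. Ccng1 was 0.70, 0.56 and 0.68 in brain and -0.45 and -0.27 in liver.

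Mdm2, the ligase that limits p53, was nearly level over the arrays. Brain arrays stood at 2.69, 2.79 and 2.71, kidney arrays at 2.77, 2.72 and 3.05 and liver arrays at 2.68 and 2.82. The highest array was high-dose kidney, 0.27 above control or 1.34 array errors, and a further Mdm2 probe, whose alignment spans an intron, differed there by 0.01. Trp53inp1, whose product promotes p53-dependent cell death and autophagy, was -0.11, -0.25 and 0.27 in kidney, a high-dose difference of 0.38, and its further probe differed by 0.11. It was -1.44, -1.53 and -1.61 in brain and 0.92 and 0.83 in liver. Bax, which permeabilises the outer mitochondrial membrane in apoptosis, was 2.19, 2.22 and 2.37 in kidney and 1.79 and 1.89 in liver. Bax in brain was 1.48 in control and 1.19 and 1.15 at the low and high dose, differences of -0.29 and -0.33, and its further probe gave -0.31 and -0.20. Those brain differences were under 2 array errors.

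All 6 p53 targets were above control in high-dose kidney, by 0.18 to 1.36 with a median of 0.53, against a median of -0.03 over all genes measured in that comparison, and 2 of the 6 counted as higher, where 1.12% of all genes did. That contrast was used in choosing the genes. In low-dose kidney their median difference was -0.03, with a range of -0.14 to 0.04. In high-dose liver 4 of the 6 were above control and 2 below, with a median of 0.12, and Cdkn1a was the only p53 target that counted as lower. Mdm2, Ccng1, Phlda3 and Bax lay between 0.10 and 0.39 in liver. The low point of Cdkn1a in liver thus had no counterpart among the other 5.

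Gadd45g fell in kidney and liver at the high dose, by 1.93 and 1.70 on the log2 scale, and was also below its control in brain. The kidney levels in control, low-dose and high-dose order were 5.35, 4.35 and 3.42, the liver levels in control and high dose 4.89 and 3.20, and the brain levels 3.02, 2.68 and 2.65. In kidney the low-dose array lay between control and high dose, at a difference of -0.99 from control that was 4.88 array errors and just short of the 2-fold rule. The high-dose array lay a further -0.93 from the low-dose array. The high-dose fold was 3.80 in kidney and 3.25 in liver, and Gadd45g ranked 7 from the lowest in each comparison. Brain differed by -0.34 and -0.38, or 1.26-fold and 1.30-fold. The probe lies at chr13:51943733-51943792 (mm9), and its signal of 29725 on the control kidney array was not saturated.

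Neither of the other Gadd45 genes counted as lower with Gadd45g in high-dose kidney or liver. All 3 lay below control in low-dose brain, at -0.47 to -0.05. Gadd45a, which p53 is known to activate after DNA damage, was 0.49, -0.03 and 0.36 in kidney, so the low-dose array was the lowest, at -0.53 from control. In liver it was -2.10 in control and -1.30 at the high dose, 0.80 above control. That was 1.74-fold, 3.41 array errors and rank 121 from the highest. Brain arrays of Gadd45a were -0.87, -0.93 and -0.75. Gadd45b, a gene known for rapid induction by NF-κB and neuronal activity, was 0.88, 0.41 and 0.78 in brain, where the low-dose array was lowest at -0.47 from control. Gadd45b stood at -1.88, -1.62 and -1.49 in kidney and at -2.57 and -2.10 in liver, so every exposed kidney and liver array was above its control, by 0.26 to 0.47, and none passed the rule.

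Myc fell by 1.74 on the log2 scale in high-dose liver, which was 3.35-fold. Its level there was -1.92 in control and -3.66 at the high dose, and it ranked 4 from the lowest. In kidney it was -2.97, -3.44 and -2.41. The low-dose kidney array was thus below and the high-dose array above control, by -0.47 and 0.56, and the exposed arrays differed from each other by 1.03. Brain arrays were -3.79, -4.04 and -3.76. Myc was dim everywhere, with a processed signal of 34.4 to 146.9. Both Myc probes are shown because the reading of Myc depends on which is taken. They lie 492 bases apart in the gene, the reported probe at chr15:61821417-61821476 and the other at chr15:61820925-61820984 (mm9), and both are written 5′ to 3′ as in the array files.
Myc probe A_52_P108346, reported: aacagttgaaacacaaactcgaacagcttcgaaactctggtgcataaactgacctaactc
Myc probe A_52_P278549: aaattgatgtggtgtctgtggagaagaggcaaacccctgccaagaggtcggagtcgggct
The second probe pointed the same way as the reported probe in high-dose kidney (0.89) and liver (-0.97) but was well above background on 3 of the 8 arrays, which were high-dose brain, high-dose kidney and control liver. With normexp background correction, the Myc difference in liver was -0.91 and that between high-dose and low-dose kidney 0.63, so neither passed the rule. The latter was also short of it with median scaling (0.998) and with quantile normalization (0.97).

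**Figure D2:**
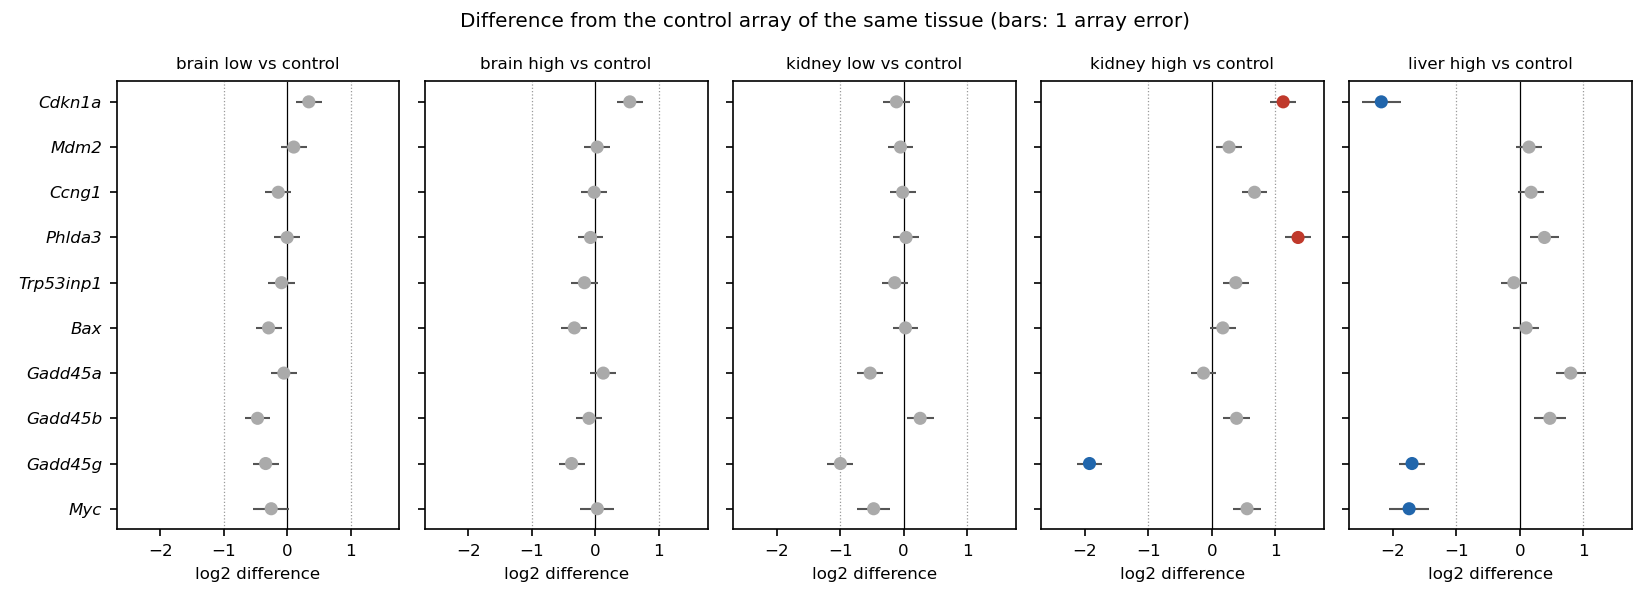
Log2 difference of each gene from the control array of its tissue (x axis) for the 5 exposed arrays, with a bar of 1 array error on each side and dotted lines at the 2-fold rule. Red points counted as higher, blue as lower and grey as neither: Cdkn1a (1.13) and Phlda3 (1.36) are red in high-dose kidney, Gadd45g is blue there (-1.93), and Cdkn1a (-2.18), Gadd45g (-1.70) and Myc (-1.74) are blue in liver.

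Counted over the set, high-dose kidney had 3 of 10 members past the rule, 2 higher and 1 lower, where 1.12% of all measured genes counted as higher and 0.542% as lower (1.66% either way). High-dose liver had 3 of 10 lower and 0 higher, against 0.456% and 0.336% of all genes (0.792% either way). Both contrasts were used to choose the genes, so nothing is read from these shares. High-dose against low-dose kidney had 3 of 10 higher (Cdkn1a, Phlda3 and Myc), against 0.833% of all genes, and 0 lower, against 0.241% (1.07% either way). The comparison shares the high-dose kidney array with the chosen contrast. Low-dose kidney had 0 of 10 past the rule, where 0.216% of all genes counted as higher and 0.274% as lower (0.49% either way). Brain had 0 of 10 at the low dose, against 0.444% higher and 0.306% lower (0.75% either way). At the high dose it had 0 of 10, against 0.199% and 0.252% (0.45%), and between the doses 0 of 10, against 0.313% and 0.734% (1.05%). The members' differences ranged from -0.47 to 0.34 in low-dose brain and from -0.38 to 0.54 in high-dose brain, with Cdkn1a the highest in each.

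Kidney and liver have separate control arrays, and 18215 genes were measured in both high-dose comparisons. Cdkn1a was the only gene that counted as higher in kidney and lower in liver, a count that rests on its reported probe and is lost for Cdkn1a with the mean of its probes or with normexp. The opposite pattern was counted for 4 genes. Gadd45g was 1 of 4 genes that counted as lower in both, and 7 genes counted as higher in both. The patterns of Cdkn1a and Gadd45g were used in choosing the genes, so nothing is read from these counts.

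**Figure D3:**
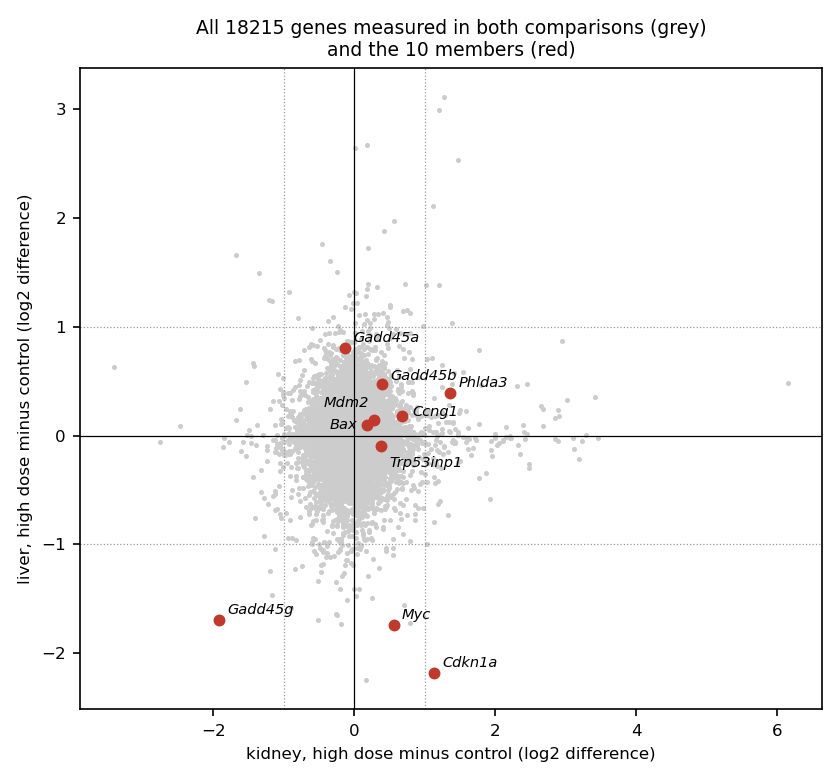
Log2 difference of high dose from control in kidney (x axis) and in liver (y axis) for the 18215 genes measured in both (grey) and the 10 members (red), with dotted lines at the 2-fold rule. Cdkn1a lies alone in the lower right corner at 1.13 and -2.18, Gadd45g lies in the lower left corner, and the other p53 targets lie right of 0 with liver differences near 0.

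Signals of other cells and of tubule injury also differed on the exposed arrays. In high-dose kidney 1.12% of all measured genes counted as higher and 0.542% as lower, and 9340 of 21230 were above control. The shares higher and lower were 0.444% and 0.306% in low-dose brain, 0.199% and 0.252% in high-dose brain, and 0.336% and 0.456% in liver. On the high-dose kidney array, 7 of 9 measured sperm genes counted as higher, with a median of 2.39 and summed levels of 3.98, 3.68 and 5.05 in control, low-dose and high-dose kidney. Of the urothelium genes 3 of 4 measured counted as higher (summed levels -0.35, 1.37 and 1.38). Of the liver genes 3 of 6 measured did, with 5 above control and 1 below (-0.69). The summed level of the whole liver list nevertheless fell (7.88, 7.71 and 7.50). The tubule injury markers Havcr1 and Lcn2 were higher by 1.78 and 1.62, 2 of 9 measured, with summed levels of 6.19, 6.20 and 6.63 for their list. Adrenal genes were lower, 3 of 6 measured, with summed levels of 2.56, 0.38 and 0.34. Of the adipocyte genes 1 of 9 measured counted as lower and 8 were below control, with a median of -0.64 and summed levels of 5.55, 5.29 and 4.94. Of the macrophage genes 0 of 11 measured passed the rule in high-dose kidney and 10 were above control, with a median of 0.52 and summed levels of 4.45, 4.45 and 4.58. Of the proliferation genes 0 of 16 passed it there and 12 were above control, with a median of 0.34. No gene of the cell marker lists passed the rule in high-dose liver, where the summed level of the macrophage list was 6.13 in control and 6.07 at the high dose. In low-dose brain 11 of 11 striatum genes were higher (summed levels 6.04, 7.63 and 5.40 in control, low-dose and high-dose brain), and 4 of 9 hippocampus genes were lower, with all 9 below control (4.68, 4.20 and 4.50). In high-dose brain 8 of 10 choroid plexus genes were lower (2.74, 2.47 and 1.16) and 4 of 6 sperm genes higher. Of the pituitary genes 2 of 3 measured were lower there, Prl (-3.54) and Pomc (-1.65), and Pomc was also lower in low-dose brain (-1.55). The part of these signals in the differences of the 10 genes was not tested.

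A further 45 p53 target genes served as a wider list, 44 of them on the array. In high-dose kidney 4 of 42 measured counted as higher and 0 as lower, where 1.12% of all genes counted as higher and 0.542% as lower. Of the 42, 35 were above control, as were 9340 of all 21230 measured genes, and the median was 0.17 against -0.03 over all genes. These arrays were used in choosing the members, and the list was chosen with earlier results known, so the list is no independent check. The 4 were Ephx1, an epoxide hydrolase of detoxification, with levels of 2.66 in control, 2.94 at the low and 4.19 at the high dose, Gdf15, a circulating stress cytokine, with 0.57, 0.57 and 1.81, and Psrc1 and Ckap2, spindle-associated proteins. The high-dose differences were 1.53, 1.25, 1.21 and 1.07. Ephx1, Gdf15 and Psrc1 also counted as higher against the low-dose array, by 1.26, 1.24 and 1.32. Bbc3, which encodes the death-promoting protein PUMA, differed by 0.97 and Plk2 by 0.83, short of the rule, while Trp73 (-0.37) was the lowest of the list.

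In low-dose kidney 0 of 42 of these targets passed the rule, where 0.49% of all genes did, and the median was 0.02. In high-dose liver 0 of 35 passed, where 0.792% of all genes did. There 18 were above and 17 below control, as were 8796 and 10266 of all genes, and the list's median was 0.02. Bbc3 was the lowest there at -0.67 and Gdf15 the highest at 0.65. In brain the antiproliferative gene Btg2, which is also an immediate early gene, was lower at the low dose by 1.03. It was 1 of 41 measured targets, where 0.306% of all genes counted as lower. At the high dose it was at -0.97, so its level was 0.32 in control and -0.72 and -0.65 in the exposed brains. A further Btg2 probe gave -1.15 and -1.03. The immediate early list, which also holds Btg2, had 2 of 18 genes lower in low-dose brain, Btg2 and Cyr61 (-1.22), where 0.306% of all genes counted as lower. Of the 18, 16 were below control, with a median of -0.44 and summed levels of 6.94, 6.54 and 6.74 in control, low-dose and high-dose brain. The part of that list in the Btg2 difference was not tested.

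**Figure D4:**
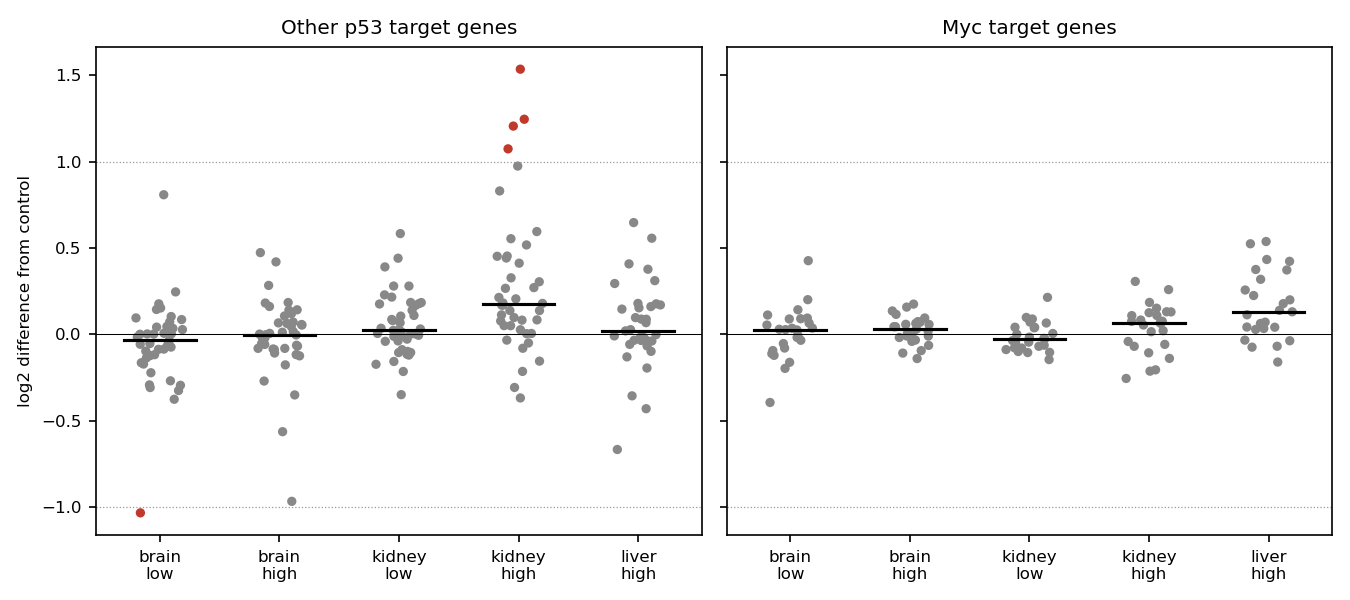
Log2 difference from control (y axis) of each measured gene of the wider p53 target list (left) and of the Myc target list (right) on the 5 exposed arrays (x axis), with the median as a black bar, the 2-fold rule as dotted lines and genes past the rule in red. The p53 target median is 0.17 in high-dose kidney and 0.02 in high-dose liver, and the Myc target median in liver is 0.13.

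Transcripts of the upstream regulators of p53 varied little. Trp53 itself, which encodes p53, had brain levels of -1.58, -1.71 and -1.63, kidney levels of -1.12, -1.08 and -1.16 and liver levels of -0.75 and -0.94, and no exposed array differed from its control by more than 0.19. Mdm4, the partner of Mdm2, differed by -0.05 in high-dose kidney and 0.22 in liver. Of the 21 regulators measured in high-dose kidney, Chek2, a checkpoint kinase, was the only one past the rule, at 1.18. Of all genes, 1.12% counted as higher there. Chek2 was at 0.03 in low-dose kidney. Its single probe was well above background on 3 of the 8 arrays. Among the other genes named Cdkn, Cdkn3 (1.63) and Cdkn2b (1.07) counted as higher in high-dose kidney, 2 of 6 measured, where 1.12% of all genes did. The further measured probe of Cdkn3 gave 1.08 and that of Cdkn2b 0.79, short of the rule. Low-dose kidney gave 0.73 for Cdkn3 and 0.91 for Cdkn2b. In liver 0 of 4 of these Cdkn genes passed, with a range of -0.21 to 0.27, where 0.792% of all genes passed.

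Relatives of Bax in the Bcl2 family gave 0 of 12 past the rule in high-dose kidney, where 1.66% of all genes passed either way. In high-dose liver 1 of 12 passed, where 0.456% of all genes counted as lower. This was Bmf, a death-promoting BH3-only gene, which was lower by 1.04 on its reported probe and differed by -0.08 on a further probe. The kinases and partners of the Gadd45 proteins (12 on the array, among them Map3k4, Mapk14, Pcna and Cdk1) gave 0 past the rule in each of the 7 comparisons, and their medians lay between -0.01 and 0.03. Of all measured genes, 0.45% to 1.66% passed either way, so nothing is read from that 0.

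For Myc, 25 genes of ribosome synthesis and growth known as its targets gave 0 past the rule in each of the 7 comparisons. Of all measured genes, 0.45% to 1.66% passed either way, so nothing is read from that 0. In high-dose liver, where Myc was lower, 20 of the 25 were above control, as were 8796 of all 19062 measured genes. The list's median there was 0.13 against -0.02 over all genes. The highest were Gnl3 (0.54) and Nop2 (0.52), nucleolar proteins, and Srm (0.43), which makes spermidine. The lowest was Ldha (-0.16). In high-dose kidney the median of the list was 0.07. Of the Myc network (Max, its partners and Myc's relatives, 14 on the array), 0 passed the rule in any of the 7 comparisons. The shares of all genes were the same 0.45% to 1.66%, so nothing is read from it. In liver 11 of the network were measured, with a median of 0.06.

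Likeness of other genes to Cdkn1a, Gadd45g and Myc was measured as the root mean square distance over the 5 differences from control among 11381 named genes well above background on all 8 arrays, and differences within a tissue share a control array, so no test is attached. The genes closest to Cdkn1a, whose own root mean square size was 1.14, were Ms4a7 (0.396), Myc (0.501), Cnbd2 (0.598), Ifit2 (0.631) and Aqp8 (0.693). Ms4a7 was at -1.56 in liver and 0.70 in high-dose kidney. Myc was at -0.25 in low-dose brain against 0.34 for Cdkn1a, and at 0.56 in high-dose kidney against 1.13. Closest to Gadd45g (own size 1.25) were Arntl (0.562), Isoc2b (0.581), Cdc45 (0.597), Cish (0.614) and Bcl6 (0.621). Arntl, which encodes the clock protein BMAL1, was at -0.65 and -0.90 in low-dose and high-dose kidney and at -1.58 in liver, and its further probes gave -1.67 and -1.70 in liver. A further Bcl6 probe went the other way, at 2.94, 2.36 and 1.13 on the exposed kidney and liver arrays. Closest to Myc (own size 0.853) were Sult4a1 (0.337), Cnbd2 (0.376), Matn4 (0.406), Lgalsl (0.434) and Lonrf3 (0.444), all between -1.51 and -1.13 in liver. Further probes that were well above background on all 8 arrays were at -1.04 for Lgalsl, -0.34 for Cnbd2 and 0.05 for Matn4 in liver.

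The 3 tissues differed in their levels of most members. The choice of genes used differences from control and not those between tissues, but the kidney and liver values of Cdkn1a and Gadd45g that led to it enter the tissue means, so for these genes the test is not independent of the choice. The test was limma's moderated test over 24503 genes with tissue and dose as factors. Its residual, with 3 degrees of freedom, is what dose and tissue together leave, since no group has a second array. At an adjusted p (Benjamini-Hochberg over all genes) below 0.05, brain and kidney differed for 7 of 10 members, where 79.5% of all genes passed (35.1% higher and 44.4% lower in brain). Brain and liver differed for 8 of 10, where 83.3% of all genes passed (34.9% higher and 48.5% lower in brain), and kidney and liver for 6 of 10, where 69.2% passed (28.1% higher and 41.1% lower in kidney). The members' shares were near those of all genes.

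Gadd45b was higher in brain than in kidney by 2.35 ± 0.16 (log2 difference ± SE, limma adjusted p = 1.17e-05) and than in liver by 3.08 ± 0.18 (adjusted p = 6.43e-06), with all 3 brain arrays above all 5 others. Phlda3 had the same order, brain above kidney by 1.42 ± 0.28 (limma adjusted p = 0.00287) and kidney above liver by 2.69 ± 0.32 (adjusted p = 0.000416). Ccng1 was highest in kidney, above brain by 1.67 (brain minus kidney -1.67 ± 0.13, limma adjusted p = 3.04e-05) and above liver by 2.76 ± 0.16 (adjusted p = 1.16e-05). Gadd45a was likewise highest in kidney, with a kidney minus liver difference of 2.07 ± 0.22 (limma adjusted p = 0.000206). Trp53inp1 ran the other way from Gadd45b, with brain minus kidney -1.49 ± 0.13 and kidney minus liver -0.85 ± 0.16 (limma adjusted p = 5.22e-05 and 0.00307). Bax was lowest in brain, at -0.99 ± 0.10 from kidney and -0.54 ± 0.12 from liver (limma adjusted p = 0.000106 and 0.00473). In each of these genes the arrays of the tissues named did not overlap. How many of all genes showed such a separation was not counted, so nothing is read from it. Of all genes, 69.2% to 83.3% passed the test between a pair of tissues.

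Gadd45g was lower in brain than in kidney (-1.59 ± 0.28, limma adjusted p = 0.00167) and than in liver (-1.23 ± 0.32, adjusted p = 0.0109), and kidney and liver were not separated (0.36 ± 0.32, adjusted p = 0.355). The brain and liver call was lost without the control liver array, with quantile normalization and with no dose term. Cdkn1a passed between brain and liver (2.16 ± 0.70, limma adjusted p = 0.0256) and not between kidney and liver (1.53 ± 0.70, adjusted p = 0.0945). That call was lost when the low-dose or high-dose brain, low-dose kidney or high-dose liver array was left out, and with the mean of all probes. Myc and Mdm2 passed in none of the 3 tissue comparisons. The Mdm2 difference between brain and liver was -0.00 ± 0.09, and that of Myc between brain and kidney was -0.92 ± 0.42 (limma adjusted p = 0.0857).

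**Figure D5:**
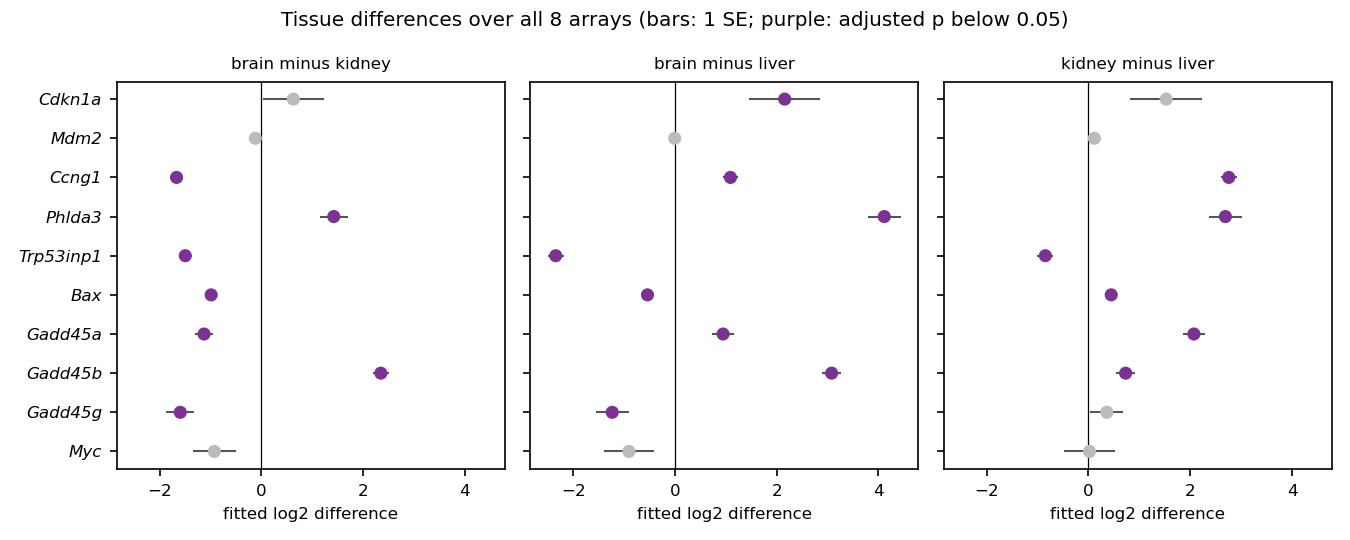
Fitted log2 difference between tissues (x axis) for each gene over all 8 arrays with a bar of 1 SE on each side, in purple where limma's adjusted p was below 0.05. Gadd45b (2.35 and 3.08) and Phlda3 (1.42 and 4.11) are far right of 0 for brain, Trp53inp1 (-1.49 and -2.34) is far left, and Mdm2 lies within 0.12 of 0 in all 3 comparisons.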

How the data were processed

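Each of 8 RNA samples, labelled with Cy3, was hybridised to 1 Agilent array (design 074809), per the labels. Spot intensity in the deposited files is linear and came from version 12.0.3.1 of Agilent Feature Extraction, according to the submitters' processing notes. The authors' software had subtracted background, and arrays were left unscaled, per the file headers. Flags for background, saturation and outliers (0 or 1) were read as well, per the file headers. In the deposited value table the intensity of each array had been divided by the 75th percentile of all its spots, a linear scale, and column medians were 0.0905 to 0.114.

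Control spots and spots marked as outliers were left out, log2 signals were taken relative to each array's 75th percentile over non-control spots, and probes kept the gene names and mm9 positions of the array files. The number of arrays limits the precision. The members and lists were chosen with earlier results of these data known. Named genes were all members, up to 4 genes of each pathway list past the rule in each comparison, the 5 genes most like Cdkn1a, Gadd45g and Myc, the extremes of a list and its main regulators, the last group chosen after their values were seen. Tissue comparisons used limma 3.58.1 in R 4.3.3 (lmFit and eBayes with an intensity trend), and promoter windows were searched in Python 3.11.15. The limma fit was run on simulated data with independent noise and no dose effect. That run cannot show how the fit behaves where tissues respond to dose differently. Alternatives were median and quantile scaling, normexp background correction (offset 50), the mean of all probes, other filters on dim and outlying spots, the deposited value table, a 1.5-fold rule, a fit without dose and each array left out. Groups came from the labels, and any difference between animals cannot be told apart from dose with 1 array per group.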

Additional observations from a re-analysis of the deposited data

Results flagged for a closer look

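Cdkn1a drew attention because its high-dose difference from control had opposite signs in kidney and liver. It was 1.13 in kidney and -2.18 in liver on the log2 scale, a gap of 3.31. With 1 array in each group, the difference between the tissues was not tested.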

How the results depend on the processing

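Of 108 counts of members under an alternative, 105 were within 1.5 times the reported count. The loss of 1 member from 3 stays within that bound. The 105 therefore include counts from which Cdkn1a (normexp or the mean of all probes) or Myc (normexp) was lost. Low-dose kidney went from 0 to 1 member past the rule with quantile normalization and to 1 with a 1.5-fold rule, which was Gadd45g in each. High-dose against low-dose kidney went from 3 to 5 with the 1.5-fold rule, which added Ccng1 and Gadd45g. Of 420 single differences under 6 alternatives, 401 moved by less than an array error, 19 moved further and 0 past the rule changed sign. Keeping outlier spots could move none of them, since no spot of a member was marked. Median scaling and the deposited value table shift all genes of an array alike, by less than an array error. The 401 is therefore in large part fixed by these settings. Of the 19, 14 came from the mean of all probes, which averages in probes below background and gave 0.35 and -0.39 for Cdkn1a in high-dose kidney and liver, and 4 from normexp. Quantile normalization took Gadd45g in liver to -1.46. In the tissue fits, leaving out 1 array gave 7 to 9 members for brain and kidney, 7 to 8 for brain and liver and 5 to 7 for kidney and liver, with 2 residual degrees of freedom each. Bax and Gadd45b were lost between kidney and liver without the control liver array, and Bax also without the high-dose kidney array. No paired analysis was possible because each group had 1 array and no label ties the tissues of an animal together, although the tissue fit compares tissues within doses. Dim signal limits Myc everywhere and Cdkn1a in high-dose liver.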
